A study of Mus musculus with 6 samples.

Results

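The FGF ligand genes Fgf4, Fgf17 and Fgf15, the receptor genes Fgfr1 and Fgfr2, and the Ras protein genes Eras, Nras, Rras and Rras2 were followed in mouse embryonic stem cells (ESCs) given miR-294 or an siRNA against Mbd2. These 9 genes were chosen by name from the 13743 entries of the deposited table, with the RPKM values (read counts scaled to transcript length and library size) of the same 6 libraries already known. Each gene has 1 entry, and all 9 had a mean of at least 1 RPKM and were tested. Their levels and differences between groups are therefore given as a description; their calls in the fit over all genes are counted once, beside the share of all genes called, and support nothing. All groups were ESCs of the strain C57/129 with the genotype Dgcr8-/-, the transfected controls included. Dgcr8 is needed to process canonical microRNAs, so all 3 groups share that deficit. The groups were CTR, miR-294 and siMbd2, named for the transfection, with 2 libraries each. Cells were plated 16 h before transfection and are labelled 48 h, and the stated dose of mimics and siRNAs was 50 nM. What CTR cells received is not given beyond the name, and the deposited table calls them mock. Nothing in the labels says whether replicates were separate cultures, so the spread between them may be technical.

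FGFs are secreted ligands that bind receptor tyrosine kinases together with heparan sulfate. The bound receptor phosphorylates the adaptor FRS2, which recruits GRB2 and the exchange factor SOS, and SOS loads Ras with GTP. Active Ras engages RAF kinases, and through them MEK and ERK, and also PI3K and the RAL exchange factors. In mouse ESCs autocrine FGF4 is the main driver of ERK and prepares cells to leave the naive state, whereas ERAS is a Ras-like protein of ESCs that stays active without a stimulus and acts mainly through PI3K.

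The transfected microRNA and its matches in the 3' UTRs of these mRNAs are shown first, because a seed match is the feature through which a microRNA usually selects its targets. The mature strand, from RefSeq (GRCm38.p6), lies at chr7:3220691-3220712 on the plus strand, and capitals mark the seed, bases 2 to 8 from the 5' end.
mmu-miR-294-3p: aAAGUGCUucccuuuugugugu
The same seed is found in miR-291a-3p, miR-295-3p, miR-302b-3p and miR-302d-3p. The searched matches were the 8-base AGCACTTA and the 7-base AGCACTT and GCACTTA, on the mRNA strand, taking for each gene its longest annotated 3' UTR in GENCODE vM21 (GRCm38). The 7-base forms lie within the 8-base one, and a gene was classed by its longest match. Of 10807 tested gene symbols with such a UTR, 20.9% held a match: 3.68% the 8-base form, 13.9% AGCACTT alone and 3.31% GCACTTA.

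None of the 9 mRNAs held the 8-base match, and 3 held a 7-base match. The sites are printed with their flanks, the match in capitals; all lie in the 3' UTR.
Fgf4 at chr7:144862993-144862999, plus strand: ccctcaggaggAGCACTTtctctcgatgg
Fgf15 at chr7:144900815-144900821, plus strand: tcctttccccgGCACTTAcgtggcagcat
Nras at chr3:103066369-103066375, plus strand: ctgctgagaccAGCACTTggtcttgtttt
Nras at chr3:103066731-103066737, plus strand: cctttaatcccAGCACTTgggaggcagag
The longest UTR of Nras measured 3727 bases, longer than in 90.4% of genes. Its second match sits in an 18-base stretch that recurred, letter for letter, in 118 of the 1902 UTRs with AGCACTT or AGCACTTA (6.2%). Only 1 of 2 annotated Nras transcripts with a 3' UTR held a match. Rras2 held the 6-base GCACTT at chr7:114047498-114047503 (minus strand) and no longer form. Fgf17, Fgfr1, Fgfr2, Eras and Rras held no 7- or 8-base match in any annotated coding transcript with a 3' UTR. The UTRs of Eras (216 bases) and Rras (283 bases) were short, with 9.75% and 14.1% of genes below them.

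Facts of the whole series are brief. Summed RPKM ran from 429460 to 493079, and read depth is unknown. The median gap between replicates on the log2(RPKM + 1) scale was widest for the CTR pair, at 0.136, beside 0.063 for the miR-294 pair and 0.06 for the siMbd2 pair. Mbd2, the siRNA target, read 26.8 and 27.9 RPKM in CTR, 11.3 and 12.3 with miR-294, and 7.33 and 6.34 with siMbd2. Dgcr8 mRNA read 6.66 to 8.44 RPKM in all 6 libraries and so does not check the genotype. The 8 ESC markers were all listed, with sums of 2328 to 2416 RPKM in CTR, 2773 and 2776 with miR-294, and 2529 and 2544 with siMbd2. Within that list 4 were called higher and 2 lower with miR-294, beside 27.7% and 36.8% of all tested genes. Pou5f1 rose from 790 and 689 RPKM in CTR to 1059 and 1056 with miR-294 (limma adjusted p = 3.13e-04). Nanog fell from 363 ± 12.7 to 208 ± 3.43 RPKM (limma adjusted p = 1.09e-05). Of 7 feeder fibroblast markers 2 were listed, summing to 1.64 and 1.53 RPKM in CTR, 3.89 and 3.56 with miR-294, and 1.15 and 1.32 with siMbd2. The 7 primitive endoderm markers summed to 2.85 to 4.24 RPKM, with Sox17 and Foxa2 at 0 in at least 1 library, and the single listed mesoderm marker of 3 stayed at or below 0.29 RPKM. Markers of 2 other lineages also differed between groups. The 3 neural markers (Pax6, Sox1, Nes) summed to 21.5 and 22.2 RPKM in CTR, 10.2 and 10.5 with miR-294, and 21.2 and 20.4 with siMbd2. Of 6 trophoblast markers 5 were listed, summing to 34.3 and 31.7, 18.0 and 16.6, and 25.4 and 24.4 RPKM in the same order. Of the 4 tested, 1 was called higher and 1 lower with miR-294, beside 27.7% and 36.8% of all tested genes. In bulk RNA fewer cells of a type and less RNA per cell cannot be told apart, and the part these markers play in the results below was not tested.

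Of the ligands, Fgf4 was by far the most abundant, with small differences between groups. Fgf4 (chr7:144847367-144865243, plus strand) encodes the autocrine FGF of ESCs. It read 101.88 and 105.03 RPKM in CTR, 109.26 and 112.15 with miR-294, and 115.43 and 119.81 with siMbd2. The groups did not overlap, but the mean was only 1.07 times CTR with miR-294 and 1.14 times with siMbd2. The difference in log2(RPKM + 1) was 0.10 (SE 0.05) with miR-294 and 0.18 (SE 0.05) with siMbd2. The small difference with miR-294 depended on scaling, at -0.09 with quantile normalization and 0.17 with median-of-ratios scaling.

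Fgf17 (chr14:70636203-70642268, minus strand), a ligand of the FGF8 subfamily, was low in CTR and higher in both treated groups. It read 2.71 and 2.24 RPKM in CTR, 10.78 and 10.20 with miR-294, and 8.67 and 9.64 with siMbd2. Every treated library stood above both CTR libraries. The mean was 4.24 times CTR with miR-294 (log2 difference 1.73, SE 0.10) and 3.7 times with siMbd2 (1.55, SE 0.10). Between the treatments the difference was 0.18 (SE 0.10), or 0.25 when scaled by median of ratios and 0.35 after quantile normalization.

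Fgf15 (chr7:144896531-144900953, plus strand), the mouse counterpart of human FGF19, had a graded pattern. It read 1.49 and 1.01 RPKM in CTR, 6.64 and 6.80 with miR-294, and 2.99 and 3.37 with siMbd2. No 2 groups overlapped, with miR-294 highest, siMbd2 between and CTR lowest. The mean was 5.38 times CTR with miR-294 (log2 difference 1.79, SE 0.12) and 2.54 times with siMbd2 (0.90, SE 0.12). A GCACTTA match lies in the Fgf15 UTR, and whether it acted on this level was not tested. As a share of the summed RPKM of the 3 ligands, Fgf4 made up 96.0% and 97.0% in CTR, 86.2% and 86.8% with miR-294, and 90.8% and 90.2% with siMbd2.

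**Figure D1:**
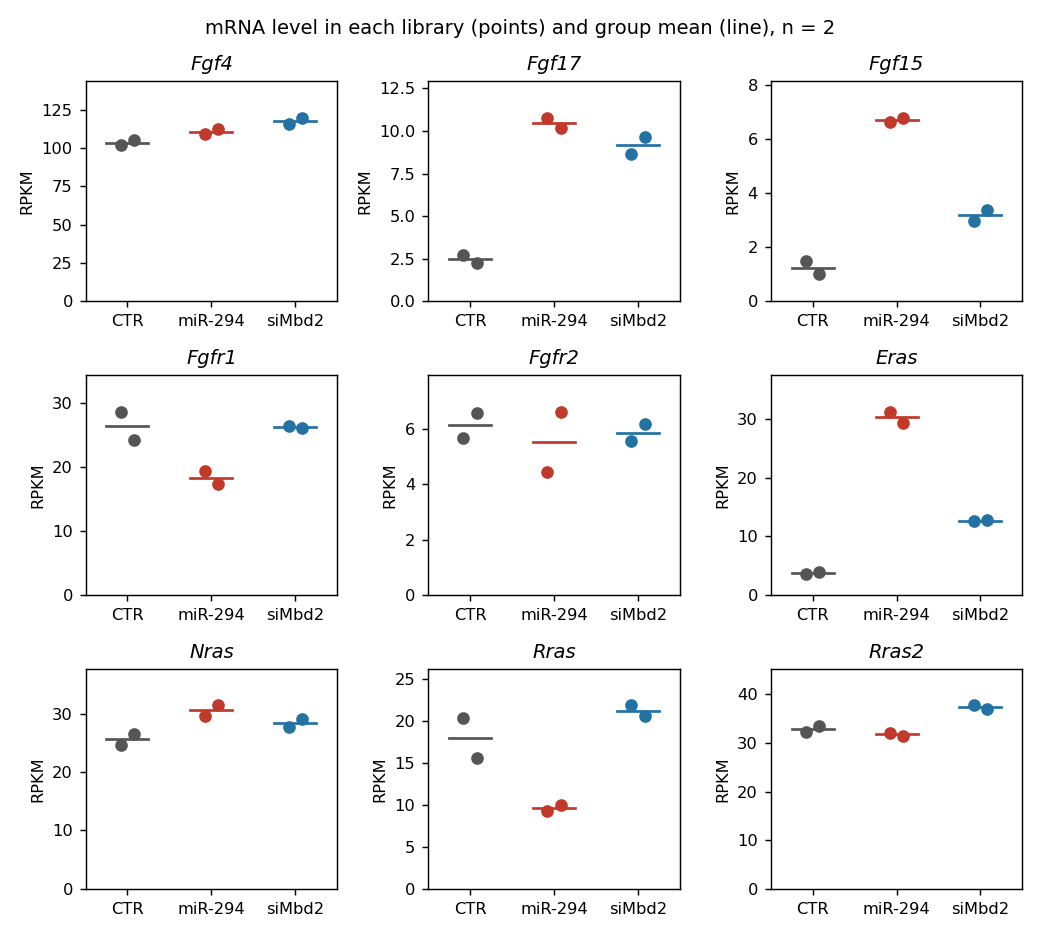
RPKM (vertical axes from 0, scaled per gene) of the 9 genes in the 2 CTR, 2 miR-294 and 2 siMbd2 libraries; points are libraries and lines group means. Eras, Fgf17 and Fgf15 stood higher in all treated libraries than in CTR, Fgfr1 and Rras were lowest with miR-294, and Fgfr2 overlapped in all groups.

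Of the receptor genes, Fgfr1 was lower with miR-294 and Fgfr2 overlapped between groups. Fgfr1 (chr8:25513654-25575718, plus strand), the main FGF receptor of ESCs, read 28.68 and 24.18 RPKM in CTR, 19.33 and 17.41 with miR-294, and 26.49 and 26.05 with siMbd2. Both miR-294 libraries lay below the other 4, and the siMbd2 libraries lay within the CTR range. The mean with miR-294 was 0.695 times CTR (log2 difference -0.50, SE 0.09) and 0.699 times siMbd2 (-0.50, SE 0.09). Against CTR it ranged from -0.38 without CTR replicate 1 to -0.62 without CTR replicate 2. With siMbd2 the ratio to CTR was 0.994 (log2 difference 0.00 to 2 decimals, SE 0.09).

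Fgfr2 (chr7:130162451-133123350, minus strand) encodes a receptor used in primitive endoderm and epithelia. It read 5.66 and 6.58 RPKM in CTR, 4.43 and 6.62 with miR-294, and 5.55 and 6.16 with siMbd2. All 3 groups overlapped. The log2 difference was -0.14 (SE 0.15) with miR-294 and -0.05 (SE 0.15) with siMbd2. The miR-294 pair was wide, and the first difference went from -0.39 without miR-294 replicate 2 to 0.10 without miR-294 replicate 1.

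Among the Ras genes the most marked difference was that of Eras (chrX:7924276-7928607, minus strand). It read 3.59 and 3.93 RPKM in CTR, 31.27 and 29.39 with miR-294, and 12.64 and 12.76 with siMbd2. The 3 groups were far apart relative to their replicate gaps. The mean was 8.07 times CTR with miR-294 (log2 difference 2.72, SE 0.08), 3.38 times with siMbd2 (1.53, SE 0.08), and 2.39 times higher with miR-294 than with siMbd2 (1.19, SE 0.08). Across 12 alternative settings the miR-294 difference from CTR ran from 2.67 to 2.98 and that with siMbd2 from 1.47 to 1.73.

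Nras (chr3:103058285-103067914, plus strand), a classical Ras gene, read 24.61 and 26.59 RPKM in CTR, 29.67 and 31.42 with miR-294, and 27.79 and 29.06 with siMbd2. The treated libraries were all above CTR, by little. The mean was 1.19 times CTR with miR-294 (log2 difference 0.25, SE 0.07) and 1.11 times with siMbd2 (0.15, SE 0.07). Whether the 2 AGCACTT matches of Nras, found in 1 of 2 annotated transcripts with a 3' UTR, acted on this level was not tested.

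Rras (chr7:45017961-45021647, plus strand), whose product belongs to the R-Ras branch and is linked to integrin adhesion, went the other way from Eras with miR-294. It read 20.31 and 15.64 RPKM in CTR, 9.28 and 10.02 with miR-294, and 21.87 and 20.56 with siMbd2. Both miR-294 libraries lay below all others. The mean with miR-294 was 0.537 times CTR (log2 difference -0.82, SE 0.11) and 0.455 times siMbd2 (-1.06, SE 0.11). With siMbd2 the difference from CTR was 0.24 (SE 0.11), and it hung on the CTR library used: 0.42 without CTR replicate 1 and 0.06 without CTR replicate 2. Rras and Fgfr1, the 2 genes lowest relative to CTR with miR-294, held no seed match in the searched UTRs.

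Rras2 (chr7:114046782-114117781, minus strand), which encodes TC21 of the same branch, read 32.23 and 33.54 RPKM in CTR, 32.07 and 31.51 with miR-294, and 37.73 and 36.91 with siMbd2. The siMbd2 libraries were the highest, and the miR-294 libraries lay just below CTR. The log2 difference was -0.05 (SE 0.06) with miR-294, 0.18 (SE 0.06) with siMbd2, and -0.22 (SE 0.06) between miR-294 and siMbd2.

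**Figure D2:**
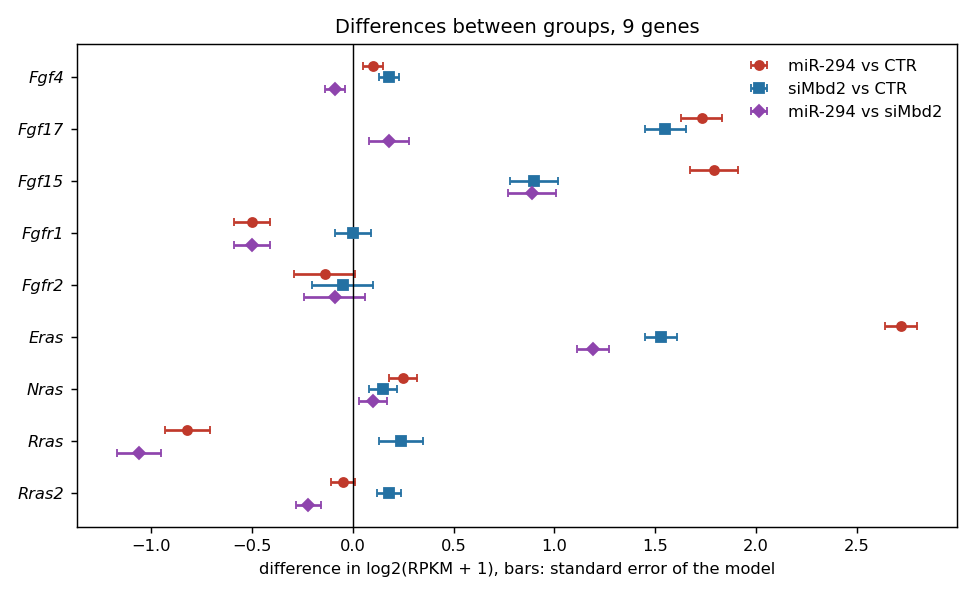
Difference in log2(RPKM + 1) for the 3 pairs of groups (horizontal axis; bars are standard errors from the limma fit over all genes, 2 libraries a group). Eras, Fgf15 and Fgf17 lie to the right for both treatments, Rras and Fgfr1 to the left with miR-294, and the other genes near 0.

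The make-up of the 4 Ras mRNAs differed between groups, as did their total. Their summed RPKM was 80.7 and 79.7 in CTR, 102 and 102 with miR-294, and 100 and 99.3 with siMbd2. Eras made up 4.45% and 4.93% of that sum in CTR, 30.6% and 28.7% with miR-294, and 12.6% and 12.9% with siMbd2. The share of Rras was 25.2% and 19.6% in CTR, 9.07% and 9.79% with miR-294, and 21.9% and 20.7% with siMbd2. Rras2 had the largest share in all 6 libraries, from 30.8% to 42.1%.

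**Figure D3:**
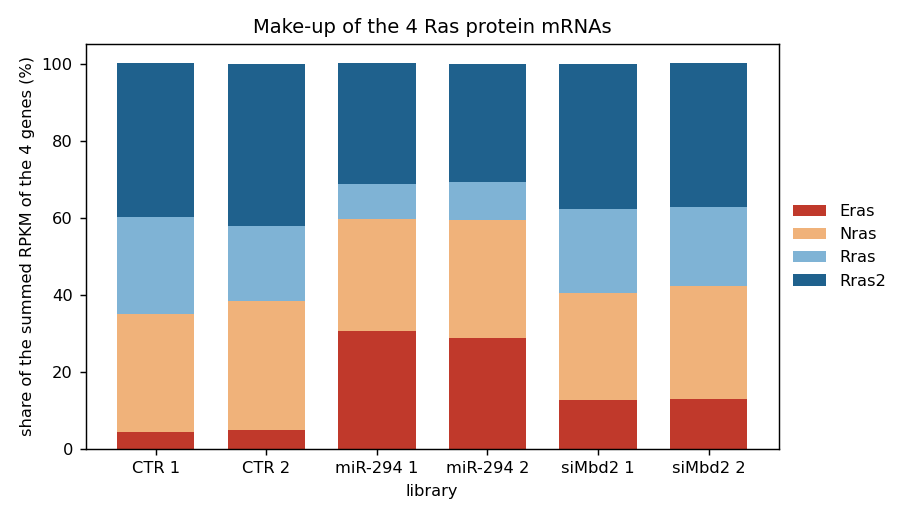
Share of the summed RPKM of Eras, Nras, Rras and Rras2 (vertical axis, percent) in each of the 6 libraries (bars). Eras goes from under 5% in CTR to 30.6% and 28.7% with miR-294 and 12.6% and 12.9% with siMbd2.

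The order of the 9 levels, which RPKM allows since it is scaled to length, differed between groups below the top. Fgf4 and then Rras2 led in all 3. In CTR there followed Fgfr1 and Nras, which overlapped, then Rras, Fgfr2, Eras, Fgf17 and Fgf15. With miR-294 Nras and Eras overlapped in the places after Rras2, followed by Fgfr1, Fgf17, Rras, Fgf15 and Fgfr2. With siMbd2 the order was Nras, Fgfr1, Rras, Eras, Fgf17, Fgfr2 and Fgf15, with no overlap between neighbours. Of all tested genes, 94.8% had a lower mean level over the 6 libraries than Fgf4, 79.5% than Rras2 and 20.0% than Fgf15.

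In the limma fit over all 11428 tested genes (called: Benjamini-Hochberg adjusted p under 0.05), 4 of the 9 genes were called higher with miR-294 than in CTR (Fgf17, Fgf15, Eras, Nras), where 27.7% of all genes were. The 2 called lower were Fgfr1 and Rras, where 36.8% of all genes were. With siMbd2, 5 were called higher (Fgf4, Fgf17, Fgf15, Eras, Rras2; 19.5% of all genes) and 0 lower (14.9% of all genes), also 0 at an unadjusted p under 0.05 in limma. Between miR-294 and siMbd2, 2 were called higher (Fgf15, Eras; 21.9% of all genes) and 3 lower (Fgfr1, Rras, Rras2; 35.5% of all genes). The median log2 difference of the 9 was 0.10, 0.18 and -0.09 in the 3 comparisons, beside -0.08, 0.02 and -0.08 for all genes. Nothing is read from these counts, as the genes were chosen with them known, and the 3 comparisons share libraries. Some calls were fragile. Those of Fgf4 and Rras2 with siMbd2 ended when any 1 miR-294 or siMbd2 library was left out, and with quantile normalization. That of Rras2 between the treatments also ended without any 1 of these 4 libraries, both Rras2 calls ended when scaled by median of ratios, and that of Nras ended without miR-294 replicate 2. Calls were gained for Fgfr2 without miR-294 replicate 2 (-0.39), for Fgf4 with miR-294 without CTR replicate 2, and with siMbd2 for Rras without CTR replicate 1 (0.42) and Nras without CTR replicate 2 (0.20). Other scalings gained calls for Fgf4 with miR-294 (median of ratios, 0.17), for Fgf4 between the treatments (quantile normalization, -0.21) and for Fgf17 between the treatments (both).

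Promoter sequence was examined because Mbd2 encodes a protein that binds methylated CG dinucleotides; methylation itself was not measured. RefSeq promoter windows (GRCm38.p6, 250 bases before to 50 after the start) were matched for 6 of the 9 genes: Fgf4, Fgfr2, Eras, Nras, Rras and Rras2. The motifs searched were CG and CACGTG, the E-box bound by MYC, both of which read the same on either strand, and CACGTG contains a CG. Of the 11123 windows of tested genes 99.5% held a CG, with a median of 21 per window, and 10.2% held CACGTG. The Eras window held 8 CGs, more than 14.4% of windows, and the Fgf4 window 28, more than 71.1%. They are printed, with CG in capitals, as Eras had the largest miR-294 difference and Fgf4 the highest level of the 9.
Eras, chrX:7928558-7928857, minus strand: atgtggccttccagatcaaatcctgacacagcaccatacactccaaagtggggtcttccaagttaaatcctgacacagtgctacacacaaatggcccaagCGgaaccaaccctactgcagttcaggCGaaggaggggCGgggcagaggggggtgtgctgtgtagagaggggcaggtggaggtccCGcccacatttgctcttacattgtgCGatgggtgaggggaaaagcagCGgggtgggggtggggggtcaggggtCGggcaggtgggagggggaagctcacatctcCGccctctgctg
Fgf4, chr7:144861136-144861435, plus strand: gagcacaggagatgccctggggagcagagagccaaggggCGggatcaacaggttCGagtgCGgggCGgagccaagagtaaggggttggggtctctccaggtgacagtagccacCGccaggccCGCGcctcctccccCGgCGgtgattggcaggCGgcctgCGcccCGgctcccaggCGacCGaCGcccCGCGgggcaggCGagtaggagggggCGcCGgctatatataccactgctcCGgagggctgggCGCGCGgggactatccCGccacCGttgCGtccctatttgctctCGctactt
Nras held 19 CGs, Rras2 20, Fgfr2 4, and the 3 windows of Rras 8, 2 and 6. CACGTG was found in the windows of Nras and Fgfr2 and in no window of the other 4.

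Genes of the most similar pattern were sought by the Euclidean distance over the 6 libraries between log2(RPKM + 1) values centred on the CTR mean, among the 8397 genes that reached a mean of 5 RPKM. The nearest to Eras were E130012A19Rik (distance 0.53; 35.9, 207 and 86.5 RPKM in CTR, miR-294 and siMbd2), Myc (0.76) and Dnmt3l (0.84). To Fgf17 they were AU015836 (0.28; 10.5, 33.9 and 35.6 RPKM) and Tcf15 (0.56). Rangrf was nearest to Fgf15 (0.29), Hcfc1r1 to Rras (0.11), 1700017B05Rik to Fgfr1 (0.06), Cdyl to Nras (0.03) and Cnih4 to Fgfr2 (0.23). The nearest genes were Akirin1 (0.04), Immt and Metap1 (both 0.06) for Fgf4, and Hsd17b10 (0.08), Ska3 (0.08) and Rtn4 (0.09) for Rras2.

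The rest of the pathway was read from 10 lists that leave out the 9 genes. Of their 150 genes 134 were listed and 114 tested. With miR-294, 24 rose and 53 fell (21.1% and 46.5%, beside 27.7% and 36.8% of all tested genes), with a median log2 difference of -0.21. With siMbd2, 24 rose and 16 fell (21.1% and 14%, beside 19.5% and 14.9%), with a median of 0.03. The siMbd2 counts were 13 and 7 without siMbd2 replicate 1 and 9 and 5 without siMbd2 replicate 2. Between miR-294 and siMbd2, 16 were higher and 54 lower, or 10 and 43 without siMbd2 replicate 1 and 22 and 44 with quantile normalization; over all genes 2500 and 4061 became 3291 and 3100 with that normalization.

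Of 19 further ligand genes 10 were listed and 2 tested, Fgf1 and Fgf13, and the rest of those listed stayed below the filter. In CTR Fgf1 read above Fgf17 and Fgf15 (2.48 and 1.25 RPKM). Fgf13 read 1.34 RPKM in CTR, 1.58 with miR-294 and 0.74 with siMbd2. It was called lower with siMbd2, close to the threshold (log2 difference -0.43, limma adjusted p = 0.0433). Fgf1 fell with miR-294 from 6.09 ± 0.707 to 4.03 ± 0.523 RPKM (SD, n = 2; limma adjusted p = 0.00392) and read 4.74 ± 0.212 with siMbd2 (adjusted p = 0.0619). Fgf5 and Fgf8 were not among the 10 listed, so no level is given for them. The receptor genes Fgfr3 and Fgfr4 stayed below the filter, at 0.815 and 0.215 RPKM in CTR, 0.5 and 0.765 with miR-294, and 0.715 and 0.205 with siMbd2. Fgfrl1, a receptor relative without a kinase domain, fell with miR-294 from 7.17 ± 1.32 to 2.82 ± 0.247 RPKM (log2 difference -1.09, adjusted p = 8.67e-05), and read 5.95 ± 0.276 with siMbd2 (adjusted p = 0.178).

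Heparan sulfate genes, which build, carry or modify the FGF co-receptor sugar, were mostly lower with miR-294. Of 17 tested, 13 fell and 1 rose (76.5% and 5.88%, beside 36.8% and 27.7% of all tested genes), with a median log2 difference of -0.69. The lower count was 13 when scaled by median of ratios and 12 after quantile normalization. The core protein genes Sdc4 and Gpc3 fell from 71.0 ± 2.45 to 22.7 ± 0.163 RPKM and from 76.8 ± 5.56 to 24.7 ± 0.757 RPKM (both log2 difference -1.60). With siMbd2, 5 fell and 1 rose (29.4% and 5.88%, beside 14.9% and 19.5% of all tested genes), and fewer fell without either siMbd2 replicate. Gpc3 was down by -0.72 (limma adjusted p = 4.19e-04) and Sdc4 by -0.46 (limma adjusted p = 0.00104). Ext1, which encodes a chain polymerase, rose by 0.28 with miR-294 (adjusted p = 0.0151) and 0.37 with siMbd2 (adjusted p = 0.0111). These calls ended without miR-294 replicate 1 and without siMbd2 replicate 2, respectively.

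Adaptor genes next to the receptor were called with miR-294 at shares near those of all tested genes. Of 12, 3 were higher and 5 lower (25% and 41.7%, beside 27.7% and 36.8%), or 5 and 4 with quantile normalization. Fewer were lower without either miR-294 replicate. The exchange factor genes Sos1 and Sos2 fell, from 12.4 ± 1.03 to 6.37 ± 0.212 RPKM (log2 difference -0.86) and from 7.96 ± 0.191 to 3.46 ± 0.148 RPKM (-1.01). Ptpn11, which encodes the phosphatase SHP2, rose by 0.42 (adjusted p = 7.66e-04) and Shc1 by 0.37 (adjusted p = 0.00167). Grb2 read 53.8 ± 0.955 RPKM in CTR, 56.1 ± 1.41 with miR-294 (adjusted p = 0.368) and 55.0 ± 0.0212 with siMbd2 (adjusted p = 0.695). Frs2 was close to the threshold, at -0.20 with miR-294 (adjusted p = 0.0484), a call lost without any 1 of the 6 libraries, and the difference was -0.13 when scaled by median of ratios and -0.02 after quantile normalization. With siMbd2 Frs2 was called lower (-0.25, adjusted p = 0.0358). With siMbd2, 1 adaptor gene was higher and 3 lower (8.33% and 25%, beside 19.5% and 14.9% of all tested genes). These adaptor calls ended when any 1 miR-294 or siMbd2 library was left out.

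Of 12 tested Ras relatives outside the 9 genes, 8 fell and 1 rose with miR-294 (66.7% and 8.33%, beside 36.8% and 27.7% of all tested genes). The lower and higher counts were 5 and 2 after scaling by median of ratios, 6 and 3 after quantile normalization, and 5 and 1 without miR-294 replicate 1. Hras, a classical Ras gene, rose from 25.7 ± 1.43 to 34.7 ± 0.728 RPKM with miR-294 (adjusted p = 4.81e-04) and to 36.4 ± 0.0566 with siMbd2 (adjusted p = 0.00122). Mras, another relative of R-Ras, read 21.2 ± 0.594, 18.2 ± 0.636 and 24.8 ± 2.40 RPKM, and its call with miR-294 (-0.21, adjusted p = 0.0435) ended with both other scalings and without CTR replicate 1 or either miR-294 replicate. Rap1a (-0.56) and Ralb (-0.55) fell with miR-294. With siMbd2 Rap1a (-0.35) and Rheb (-0.32) fell, calls that ended without either siMbd2 replicate.

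Of 15 tested exchange factors and brakes of Ras, 5 were higher and 4 lower with miR-294 (33.3% and 26.7%, beside 27.7% and 36.8% of all tested genes). Fewer were higher without miR-294 replicate 2. Ralgds, a RAL exchange factor and Ras effector, fell from 19.3 ± 1.61 to 5.48 ± 0.0778 RPKM with miR-294 (log2 difference -1.64, adjusted p = 2.68e-06) and read 19.6 ± 1.0 with siMbd2 (adjusted p = 0.834). Its 3' UTR holds the 8-base match near its start.
Ralgds at chr2:28552305-28552312, plus strand: gctggagactaAGCACTTAcagactagagt
Rasal2, a brake on Ras with the 8-base match in its longest UTR (1 of 2 transcripts with a 3' UTR held a match), fell by 0.61 on the log2 scale (adjusted p = 4.85e-04). Rasgrp2, an exchange factor mainly for RAP proteins, rose from 12.6 ± 0.163 to 25.5 ± 1.17 RPKM with miR-294 and to 20.9 ± 0.75 with siMbd2. With siMbd2, 4 of the 15 rose, or 26.7% beside 19.5% of all tested genes, and fewer rose without either siMbd2 replicate. Lower calls numbered 0, also 0 at an unadjusted p under 0.05 in limma, beside 14.9% of all tested genes. Among 9 genes of Ras lipid processing, 6 fell and 2 rose with miR-294 (66.7% and 22.2%, beside 36.8% and 27.7% of all tested genes). Both counts were smaller without miR-294 replicate 2. Zdhhc9, a Ras palmitoyltransferase gene, went from 6.06 ± 0.424 to 2.34 ± 0.0283 RPKM (adjusted p = 2.44e-05), and Icmt, which encodes the carboxyl methyltransferase, rose by 0.41 (adjusted p = 0.00134).

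Downstream, in the RAF, MEK and ERK line, 3 of 11 genes were higher and 3 lower with miR-294. Each was 27.3%, beside 27.7% and 36.8% of all tested genes, and both counts were smaller without miR-294 replicate 2. Pebp1, which encodes a RAF inhibitor protein, rose from 78.6 ± 8.41 to 121 ± 1.27 RPKM (adjusted p = 1.65e-04), Map2k2 rose by 0.41 (adjusted p = 0.00628) and Shoc2 fell by 0.48 on the log2 scale (adjusted p = 0.0018). Mapk3, which encodes ERK1, fell by 0.39 on the log2 scale (adjusted p = 0.0135), a call lost without miR-294 replicate 2; the difference was -0.20 without CTR replicate 1 and -0.57 without CTR replicate 2. With siMbd2, 3 of the 11 were higher and 1 lower (27.3% and 9.09%, beside 19.5% and 14.9% of all tested genes). These siMbd2 calls ended without any 1 miR-294 or siMbd2 library, and the higher ones also with quantile normalization. Of 16 PI3K genes 9 fell and 2 rose with miR-294 (56.2% and 12.5%, beside 36.8% and 27.7% of all tested genes). The kinase gene Akt1 fell from 35.3 ± 4.62 to 18.3 ± 1.0 RPKM (log2 difference -0.91), while Tsc2 (0.32) and Rptor (0.30) rose, the last 2 not without miR-294 replicate 1. Rptor also lost its call without miR-294 replicate 2 or CTR replicate 2. The longest Akt1 UTR holds a 7-base match, found in 1 of 2 annotated transcripts with a 3' UTR.
Akt1 at chr12:112653996-112654002, minus strand: gcccttctcctAGCACTTgtccttttaga
With siMbd2 Akt1 read 40.1 ± 0.764 RPKM (adjusted p = 0.146).

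Genes of MAPK feedback, many of them transcribed when ERK is active, came next. With siMbd2, 10 of 18 rose, or 55.6% beside 19.5% of all tested genes, with a median of 0.30. Fewer rose without either siMbd2 replicate. Lower calls numbered 0, also 0 at an unadjusted p under 0.05 in limma, beside 14.9% of all tested genes. With miR-294, 7 rose and 2 fell (38.9% and 11.1%, beside 27.7% and 36.8% of all tested genes), with a median of 0.06. Earlier results on several of these genes were known when the list was written, so it is no independent evidence of a direction. Spry4, which encodes a Sprouty inhibitor, rose from 15.9 ± 1.65 to 51.0 ± 1.46 RPKM with miR-294 and to 29.9 ± 2.02 with siMbd2 (adjusted p = 2.88e-06 and 4.19e-04). Etv4, an ETS factor gene, rose from 23.9 ± 1.8 to 72.3 ± 1.48 and 47.1 ± 4.17 RPKM (adjusted p = 2.88e-06 and 2.68e-04). Both were named for having the highest miR-294 differences of the list, so their standing above siMbd2 is partly built in. Between miR-294 and siMbd2 the list split, with 7 genes called higher and 7 lower (38.9% each, beside 21.9% and 35.5% of all tested genes). Ier3 had opposite signs, at 10.2 ± 0.00707 RPKM in CTR, 5.45 ± 0.877 with miR-294 (adjusted p = 1.60e-04) and 22.3 ± 0.502 with siMbd2 (adjusted p = 3.59e-04), and it holds a 7-base match. Il17rd, a membrane brake on FGF signalling, fell by 0.60 on the log2 scale with miR-294 (adjusted p = 1.87e-04).

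**Figure D4:**
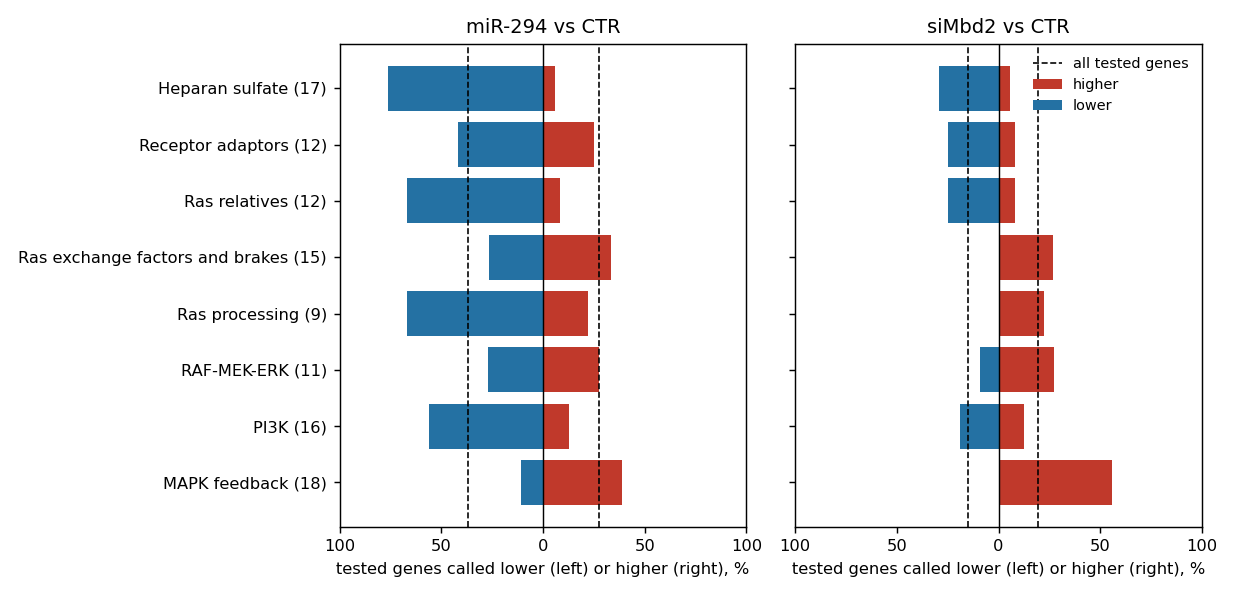
Share of tested genes called lower (blue, left) or higher (red, right) in 8 pathway lists, with the number tested in parentheses; dashed lines are the shares over all tested genes. Heparan sulfate genes reach 76.5% lower with miR-294 and MAPK feedback genes 55.6% higher with siMbd2; the lists with 2 tested genes are not drawn.

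The pathway genes were also read by seed match. Of 30 pathway genes with a 7- or 8-base match 19 fell and 0 rose with miR-294 (0 rose at an unadjusted p under 0.05 in limma as well), with a median log2 difference of -0.50. Of 84 without a match 34 fell and 24 rose, with a median of -0.11. Among all tested genes 51.2% with a match and 33.4% without one fell, and 16% and 30.8% rose. The 7 pathway genes with the 8-base match held 6 that fell, where 61.1% of all tested genes with that match fell. With siMbd2, 2 of the 30 fell and 3 rose, beside 16.3% and 14.3% of all tested genes with a match. The 3 matched genes among the 9, Fgf4, Fgf15 and Nras, had miR-294 differences of 0.10, 1.79 and 0.25; whether they differ from the matched pathway genes was not tested.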

How the data were processed

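Values are RPKM per gene and library to 2 decimals, which the authors computed and deposited, per the file headers; each library is the mean of 2 lanes, per the labels. The table also gives the authors' ratio (fold) of mean RPKM over mock, not used here. The submitters' processing notes name CASAVA 1.7, STAR 2.3.0, Cufflinks and mm10; no source used here gives the annotation or the rule for listing genes. RPKM carries no counts, and its 2 decimals gave no whole-read steps to work from, so depth and counting error are unknown; the 2 libraries per group limit precision.

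Of 13743 entries (13721 symbols, 19 repeated), the 11428 with a mean of at least 1 RPKM were tested as log2(RPKM + 1), a scale that understates changes of low genes. One model with 3 groups was fitted across all genes by limma (version 3.58.1, under R 4.3.3); the prior variance followed mean intensity, with 3 residual and 5.378 prior degrees of freedom, two-sided, with Benjamini-Hochberg adjustment; called means adjusted p under 0.05, and values after ± are SDs of RPKM. The fit was tested only on simulated data with few changed genes, equally up and down. That differs from the many and uneven calls here, so the fit was not tested under such conditions. Sites, promoters and plots used Python 3.11.15, numpy 2.4.6, pandas 2.3.3 and matplotlib 3.10.9. GENCODE and RefSeq tables are GRCm38, the assembly of mm10.

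The 9 genes, lists, tests and alternatives were chosen with earlier results of these data known. Pathway genes were named by rule: per list and comparison with CTR, the called genes with the highest and lowest log2 difference (up to 2 each way in lists of over 10 tested genes) whose higher group had at least 2 RPKM, plus close relatives and partners of the 9 genes. Alternatives were a pseudocount of 0.1, no filter, a minimum mean of 5 RPKM, 2 other scalings, a replicate block and leaving out each library. Some genes that this rule or the search for similar patterns names are not reported here.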

Additional observations from a re-analysis of the deposited data

How the results depend on the processing

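The total count of called genes, over all genes and over all pathway genes together, moved by over 1.5 times in siMbd2 vs CTR when an siMbd2 library was left out; single lists moved in other settings too, as given with them. Over all genes that count, 3933, was 1856 without siMbd2 replicate 1 and 1410 without siMbd2 replicate 2 (range over all left-out libraries 1410 to 5402). For the pathway genes the count of 40 was 20 and 14 (range 14 to 53). With one library left out of a group, the lone library is assumed to vary like the others. Among all genes called between miR-294 and siMbd2, 2500 were higher and 4061 lower, against 3291 and 3100 with quantile normalization, which moved the median log2 difference of all genes there from -0.081 to 0.025. The Mapk3 difference in siMbd2 vs CTR, -0.01, was 0.18 without CTR replicate 1 and -0.19 without CTR replicate 2. Its CTR libraries read 34.23 and 26.21 RPKM, on either side of the siMbd2 libraries at 30.34 and 29.31. Why the CTR libraries differ was not tested. The labels tie replicates across groups only by number. Deviations of same-numbered libraries from their group means correlated at 0.119 (CTR and miR-294), 0.132 (CTR and siMbd2) and 0.022 (miR-294 and siMbd2). Whether same-numbered libraries share an effect was not tested. The replicate block gave 7605, 4305 and 6815 called genes in the 3 comparisons, against 7366, 3933 and 6561 without it, and 79, 41 and 71 pathway genes against 77, 40 and 70; it changed no call of the 9 genes, but ended that of Frs2 with miR-294 (adjusted p = 0.051) and made one for Fgf1 with siMbd2 (adjusted p = 0.0268); with siMbd2 it also left 0 adaptor genes higher, against 1, and 2 RAF, MEK and ERK genes higher, against 3. Of 321 recomputed differences of the 9 genes, 276 stayed within the residual SD of the gene and 45 moved further. With a minimum mean of 5 RPKM Fgf15 was not tested.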
